A study of Homo sapiens with 4 samples.

Results

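Cholesterol is made in the cytosol and endoplasmic reticulum from acetyl-CoA, and the genes described here are 32 genes of its synthesis, control, uptake, export and storage. They were listed by gene symbol according to their known roles, with earlier results of these data known, and all 32 were found among the 18806 genes of the table. They were sorted by role into 9 genes of the steps from acetyl-CoA to squalene epoxide, 10 genes of the steps from squalene epoxide to cholesterol, 6 regulators, and 7 genes of transport, export and esterification. RNA-seq was performed on Huh7, a human hepatocellular carcinoma line, from 1 Cas9-expressing clone transduced with lentivirus carrying a non-targeting guide (sgNS, 2 libraries, genotype WT in the labels) or a METTL16 guide (METTL16 KO, 2 libraries, which the labels call METTL16 knockdown). METTL16 encodes an RNA m6A methyltransferase, and the question was which genes change in level when it is depleted. All 4 libraries came from cells that carry Cas9, were grown in serum-containing medium, and were selected with hygromycin B. The 2 libraries of a group are called biological replicates in the methods, but whether they were transduced separately is not stated, so that the p-values measure the spread between these libraries only.

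In liver cells, sterol synthesis is set by SREBP-2, a membrane-bound transcription factor encoded by SREBF2 that is carried out of the endoplasmic reticulum by SCAP when sterols are low and is held back by the INSIG proteins when sterols are high. Released SREBP-2 switches on nearly every enzyme of the pathway, and also INSIG1 and SREBF2 itself. It binds sterol regulatory elements, usually beside a CCAAT box bound by the factor NF-Y. When sterols are abundant, oxysterols instead activate the nuclear receptor LXR, whose known targets include ABCA1, ABCG5, ABCG8, MYLIP and SREBF1.

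The promoters of 4 members are shown because the results turn on these genes. FDPS fell most, SREBF2 encodes the pathway's own factor, HMGCS1 forms HMG-CoA, and INSIG1 is the feedback regulator. Each line gives the 250 bases before the transcription start (RefSeq, GRCh38.p14), with capitals for CCAAT on either strand (ATTGG when read on the other strand), for the sterol regulatory element core TCACNCCAC and for the E-box CACGTG. HMGCS1 has 2 start sites in that table, and the window with the higher coordinates is shown. GENCODE places the starts of FDPS, HMGCS1 and INSIG1 inside these windows.
FDPS (chr1:155308616-155308865, plus strand): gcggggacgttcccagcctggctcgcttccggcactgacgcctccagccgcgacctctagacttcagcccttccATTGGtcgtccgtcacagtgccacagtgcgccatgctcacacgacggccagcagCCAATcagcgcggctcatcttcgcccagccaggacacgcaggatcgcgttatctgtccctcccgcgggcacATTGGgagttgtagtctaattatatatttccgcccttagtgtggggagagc
SREBF2 (chr22:41832855-41833104, plus strand): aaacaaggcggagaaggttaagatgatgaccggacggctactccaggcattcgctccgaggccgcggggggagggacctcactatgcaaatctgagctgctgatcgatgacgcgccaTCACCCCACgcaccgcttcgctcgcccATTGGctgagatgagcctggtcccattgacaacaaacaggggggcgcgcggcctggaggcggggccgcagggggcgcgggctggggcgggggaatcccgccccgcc
HMGCS1 (chr5:43313413-43313662, minus strand): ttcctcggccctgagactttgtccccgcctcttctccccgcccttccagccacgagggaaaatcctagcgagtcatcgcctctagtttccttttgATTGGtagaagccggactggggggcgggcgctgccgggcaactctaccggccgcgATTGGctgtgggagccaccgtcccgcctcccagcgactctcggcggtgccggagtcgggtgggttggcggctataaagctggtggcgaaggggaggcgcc
INSIG1 (chr7:155297628-155297877, plus strand): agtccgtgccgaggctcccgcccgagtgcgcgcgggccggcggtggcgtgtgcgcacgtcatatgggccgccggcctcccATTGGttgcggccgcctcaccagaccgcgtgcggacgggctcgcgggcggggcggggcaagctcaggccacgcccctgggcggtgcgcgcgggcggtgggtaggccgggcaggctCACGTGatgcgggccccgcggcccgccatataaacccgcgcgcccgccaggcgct
FDPS held 3 CCAAT boxes, HMGCS1 held 2, and SREBF2 and INSIG1 held 1 each. The match to the element core lay in SREBF2, close to its CCAAT box, and the E-box in INSIG1. Promoter windows that run from 250 bases before to 50 bases after the start were found for 28 of the 32 genes, all but ACAT2, FDFT1, SQLE and SOAT2. A CCAAT box on either strand was present in 19 of the 28, or 67.9%, counting a gene once if any of its windows held it. Among the 9331 genes tested that had a window the share was 43.7%, and of all single windows 34.6%. The element core was present in 1 of the 28 (3.57%) against 1.54% of the genes tested and 1.13% of all windows, and the E-box in 5 of 28 (17.9%) against 12.7% and 7.26%. The GC box GGGCGG, a common promoter motif, was present in 23 of 28 (82.1%) against 77.0% and 45.0%. These are matches of letters and not measured binding, and degenerate elements are not found by such a search.

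The targeted gene was checked first. METTL16 (chromosome 17, 2405562 to 2511891, minus strand, GRCh38) was listed at 26.3 and 25.1 TPM with sgNS, against 17.6 and 18.8 TPM with the METTL16 guide, with a log2 fold change of -0.50 (standard error, SE, of 0.062; limma adjusted p of 2.4e-05), so transcript remained in both METTL16 KO libraries. These RNA levels do not measure the METTL16 protein, whose loss in Huh7 the study checked by Western blot. TPM is a level per transcript length, scaled so that each library sums to 1000000, so levels of different genes can be compared. The file gives no counts, so the depth behind each value is unknown. Genes were tested on log2(TPM + 0.1), which understates changes of low genes, among 11971 genes with a mean of at least 1 TPM. Between 11723 and 12074 genes per library reached 1 TPM, and the 100 most abundant genes held 32.6% and 32.8% of the total in sgNS but 28.6% and 28.7% in METTL16 KO. Over all genes tested, the log2 fold change had a median of 0.16, and a gene at that value moved with the bulk of the table. Dividing each library by its median ratio to the geometric mean (median-ratio scaling) brought this median to -0.0016. Of the 7 hepatocyte or hepatoma markers, all abundant, limma called 5 higher and 1 lower (adjusted p under 0.05). Over all genes tested, 50.1% were higher and 25.6% lower. After median-ratio scaling 5 markers were higher and 2 lower, where 4359 of the 11971 genes tested were higher and 4375 lower. AFP, a fetal liver protein, was at 1737 and 1793 TPM with sgNS but at 10387 and 10197 TPM with the METTL16 guide (log2 fold change 2.54). The log2 fold changes of ALB, TTR, HNF4A and KRT18 were 0.41, 0.74, 0.70 and 0.80, that of TF was -0.43, and that of AHSG was -0.014 (limma adjusted p of 0.62). Fibroblast markers summed to 1.18 and 1.35 TPM in sgNS and to 2.58 and 2.39 TPM in METTL16 KO, with DCN and THY1 at 0 in sgNS. Of the endothelial markers, CDH5 and VWF were at 0.04 TPM or less in every library, and PECAM1 was at 5.14 and 4.74 against 3.09 and 2.70 TPM. Of the leukocyte markers, PTPRC and CD3E were at 0.48 TPM or less, CD68 was at 3.40 and 2.72 against 8.86 and 8.57 TPM, and LYZ was at 1510 and 1553 against 909 and 924 TPM. The part of these shifts in the results was not tested.

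Of the 19 enzymes of cholesterol synthesis, 18 fell in METTL16 KO. Of the 31 members tested, limma called 25 lower and 4 higher (adjusted p under 0.05), where 25.6% of all genes tested were lower and 50.1% were higher. The members' median log2 fold change was -0.77, against 0.16 for all genes. With an unadjusted p under 0.01 and at least a 2-fold change, the thresholds the study drew for its own plot, 10 members were lower and 1 was higher, where the background was 3.75% lower and 7.69% higher. Among genes with a mean of at least 50 TPM, a cutoff set after the values were seen, 9 of 20 members passed these thresholds as lower, against 2.08% of 3407 genes. The groups did not overlap in 30 of the 31, and neither did they in 87.4% of all genes tested. After median-ratio scaling 25 members were lower and 1 was higher, and the 25 lower genes were the same as without scaling. Of the 11971 genes tested, 4375 were lower and 4359 higher under that scaling. Among all genes called, 66.2% were higher by adjusted p, against 49.9% after median-ratio scaling and 51.0% after quantile normalization. Past the 2-fold threshold these shares were 67.2%, 50.6% and 45.7%. ABCG5, the remaining member, was below the level required for the test. In bulk RNA, fewer cells that express a gene and less of its RNA per cell cannot be told apart.

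**Figure D1:**
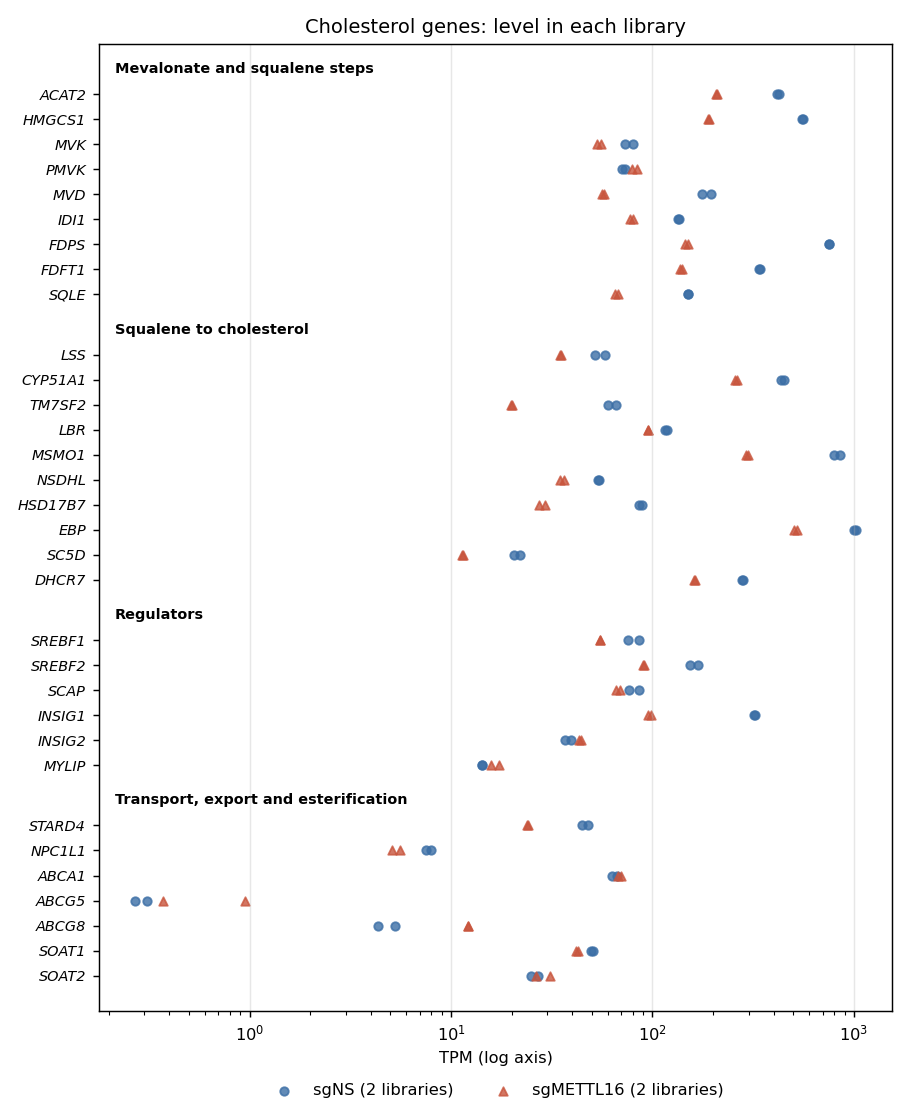
Level of each of the 32 genes in each library, in TPM on a log axis, with sgNS as circles and METTL16 KO (sgMETTL16) as triangles, grouped by role. The triangles of 18 of the 19 synthesis enzymes lie left of both circles, PMVK being the exception.

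The summed level of the 19 enzymes was 5636 and 5670 TPM in the sgNS libraries and 2471 and 2479 TPM in the METTL16 KO libraries, or 43.8% of the sgNS mean. All 32 genes together summed to 6544 and 6549 TPM in sgNS and to 3026 in each METTL16 KO library, 46.2% of the sgNS mean. Both sums differed between groups by far more than between the libraries of a group.

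Of the steps from acetyl-CoA to squalene epoxide, 8 of 9 genes were lower and 1 was higher. Over all genes tested, 25.6% were lower and 50.1% higher. The group had a median log2 fold change of -1.18. FDPS (chromosome 1, 155308748 to 155320666, plus strand), which makes farnesyl diphosphate, was listed at 755.2 and 755.4 TPM with sgNS, against 144.6 and 149.7 TPM with the METTL16 guide. This was 19.5% of the sgNS level, a log2 fold change of -2.36 (SE 0.032, limma adjusted p of 2.1e-12), and 18 of the 11971 genes tested had a lower value. The sgNS libraries differed by less than 1 TPM, and the METTL16 KO libraries by about 5 TPM. MVD (chromosome 16, 88651935 to 88663161, minus strand), the decarboxylase that makes isopentenyl diphosphate, went from 194.3 and 175.6 to 57.6 and 56.2 TPM, a log2 fold change of -1.70 (standard error 0.050). HMGCS1 (chromosome 5, 43287470 to 43313512, minus strand), the synthase that forms HMG-CoA, went from 552 and 557 to 191 and 188 TPM, a log2 fold change of -1.55 (SE 0.031, limma adjusted p of 2.5e-11). In both genes the 2 libraries of a group lay far closer to each other than to those of the other group.
FDFT1 and SQLE carry farnesyl diphosphate into squalene and then into squalene epoxide, which commits it to sterols. FDFT1 was at 339 and 343 TPM with sgNS, against 139.7 and 137.7 TPM with the METTL16 guide, and SQLE at 149.6 and 150.02 against 67.2 and 65.0 TPM. Their log2 fold changes were -1.30 and -1.18. ACAT2, a cytosolic thiolase that condenses acetyl-CoA, was at 417 and 427 TPM against 209 and 206.5 TPM, a log2 fold change of -1.02. These 6 genes are the ones of this group past the 2-fold threshold. IDI1, the isomerase that supplies FDPS, and MVK, mevalonate kinase, fell less, with log2 fold changes of -0.77 and -0.50.
PMVK, the kinase that follows MVK, went the other way. It was listed at 70.8 and 73.4 TPM with sgNS, against 83.6 and 79.5 TPM with the METTL16 guide, a log2 fold change of 0.18 (limma adjusted p of 0.0039). The groups did not overlap, but the value was close to the median of all genes, and after median-ratio scaling it was 0.012 with a limma adjusted p of 0.81. Without METTL16 KO replicate 1 the limma adjusted p was 0.076. The kinases and the decarboxylase that act one after the other on mevalonate thus had log2 fold changes of -0.50 (MVK), 0.18 (PMVK) and -1.70 (MVD).

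**Figure D2:**
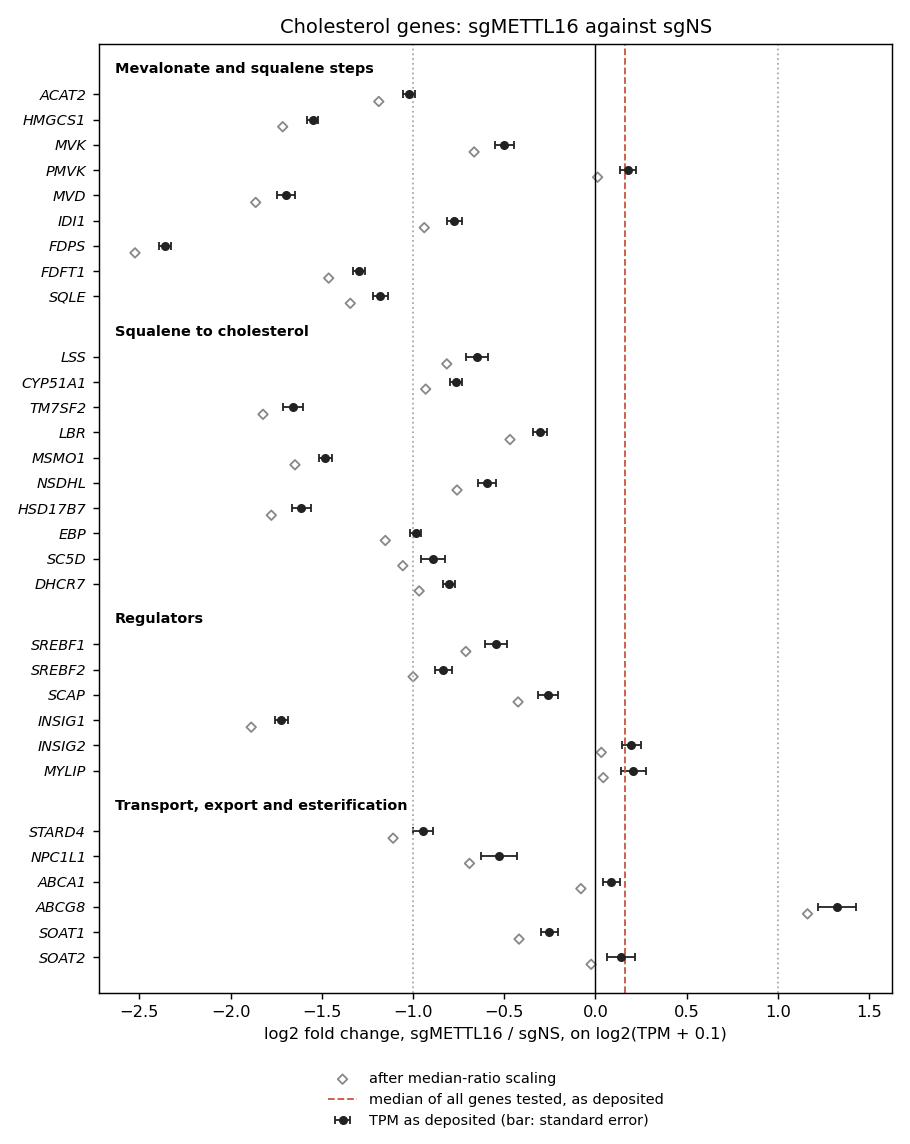
Log2 fold change of METTL16 KO (sgMETTL16) over sgNS for the 31 genes tested, in pathway order, with standard errors as bars. Open diamonds give the value after median-ratio scaling, the dashed line the median of all genes (0.16), and dotted lines a 2-fold change. FDPS lies farthest left at -2.36, and ABCG8 is the gene right of the upper dotted line.

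All 10 genes of the steps from squalene epoxide to cholesterol were lower, where 25.6% of all genes tested were lower. Their median log2 fold change was -0.85, with values from -1.66 to -0.30. The largest fall was in TM7SF2 (chromosome 11, 65111845 to 65116384, plus strand), a sterol reductase of the endoplasmic reticulum, from 66.1 and 60.3 TPM with sgNS to 19.99 and 19.92 TPM with the METTL16 guide (log2 fold change -1.66, SE 0.057). HSD17B7 (chromosome 1, 162790702 to 162812823, plus strand), a ketosteroid reductase of the demethylation complex, went from 85.8 and 88.4 to 27.5 and 29.4 TPM (log2 fold change -1.61). MSMO1 (chromosome 4, 165327667 to 165343164, plus strand), the methyl sterol oxidase of that complex, went from 799 and 854 to 292 and 299.5 TPM (log2 fold change -1.48). These 3 genes passed the 2-fold threshold, with limma adjusted p-values between 1.0e-10 (MSMO1) and 1.2e-09 (TM7SF2). NSDHL, the dehydrogenase that acts between MSMO1 and HSD17B7, fell by 0.59 on the log2 scale.
EBP, the sterol isomerase, was the most abundant of all 32 genes, at 1028 and 1004 TPM with sgNS, against 506.5 and 519 TPM with the METTL16 guide. Its log2 fold change of -0.99 (standard error 0.029) lay just short of the 2-fold threshold, and was -1.15 after median-ratio scaling. The last enzymes of the pathway, SC5D and DHCR7, fell by 0.89 and 0.80. CYP51A1, the demethylase that acts on lanosterol, fell by 0.77, and LSS, the cyclase that forms lanosterol, fell by 0.65. LBR, which combines a lamin-binding domain with the same reductase activity as TM7SF2, fell least, from 115.6 and 118.1 to 94.72 and 94.70 TPM (log2 fold change -0.30, limma adjusted p of 2.8e-05).
Some of these values are less certain than their standard errors. FDPS, HSD17B7, CYP51A1 and IDI1 have pseudogene copies to which reads could be split, and IDI1 has a paralog, IDI2. ACAT2 overlaps TCP1 and SOD2, MVK overlaps MMAB, CYP51A1 overlaps AKAP9 and SREBF1 overlaps RAI1 on the other strand. TM7SF2 overlaps VPS51 on the same strand, and ABCG5 and ABCG8 of the export genes overlap each other on opposite strands. The labels name both ribosomal RNA depletion and a strand-specific mRNA kit, and the strand setting of the quantification is not given in the sources used here.

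Of the 6 regulators 4 were lower and 2 higher, where 25.6% of all genes tested were lower and 50.1% higher. Their median log2 fold change was -0.40. INSIG1 (chromosome 7, 155297776 to 155310235, plus strand), whose product retains SCAP and SREBP in the endoplasmic reticulum, was listed at 317 and 321 TPM with sgNS, against 98.2 and 95.4 TPM with the METTL16 guide. The log2 fold change was -1.72 (SE 0.035, limma adjusted p of 2.8e-11), and 80 of the 11971 genes tested had a lower value. It was the regulator past the 2-fold threshold. SREBF2 (chromosome 22, 41833105 to 41907306, plus strand) went from 167.7 and 153.7 to 90.3 and 89.8 TPM, a log2 fold change of -0.83 (SE 0.046, limma adjusted p of 4.2e-08). SREBF1, which encodes SREBP-1, the factor better known for fatty acid synthesis, went from 85.6 and 75.4 to 54.9 and 55.2 TPM, a log2 fold change of -0.55. The sgNS libraries of both SREBF genes spread more than the METTL16 KO libraries, but the groups stayed apart. SCAP, the escort protein, fell by 0.26 on the log2 scale (limma adjusted p of 0.0012).
The 2 higher regulators were INSIG2, a homolog of INSIG1 with the same role, and MYLIP, a ubiquitin ligase that targets lipoprotein receptors for degradation. INSIG2 was at 36.8 and 39.4 TPM with sgNS, against 44.4 and 43.0 TPM with the METTL16 guide, and MYLIP at 14.2 and 14.3 against 15.8 and 17.2 TPM. Their log2 fold changes of 0.20 and 0.21 were close to the median of all genes. After median-ratio scaling they were 0.033 and 0.043, with limma adjusted p-values of 0.60 and 0.59, so neither call held. The call of INSIG2 was also lost without METTL16 KO replicate 1 (limma adjusted p of 0.073), and that of MYLIP without sgNS replicate 1 (0.052) or METTL16 KO replicate 2 (0.18).

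Among the 6 transport, export and esterification genes tested, 3 were lower, 1 was higher and 2 were not called. Over all genes tested, 25.6% were lower and 50.1% higher. The median log2 fold change of these 6 genes was -0.084, against 0.16 for all genes. STARD4 (chromosome 5, 111496033 to 111512590, minus strand), a soluble sterol carrier, fell most, from 44.6 and 47.8 TPM with sgNS to 23.9 and 23.99 TPM with the METTL16 guide (log2 fold change -0.94, limma adjusted p of 6.5e-08). NPC1L1, the transporter that takes up cholesterol at the cell surface, went from 7.99 and 7.51 to 5.10 and 5.60 TPM (log2 fold change -0.53). SOAT1, which esterifies cholesterol for storage, went from 49.8 and 50.8 to 42.8 and 41.6 TPM (log2 fold change -0.25). In each of these 3 genes the groups did not overlap, and neither did they in 87.4% of all genes tested.
ABCG8 (chromosome 2, 43831942 to 43882988, plus strand), which encodes one subunit of the transporter that exports sterols into bile, was the member that rose most. It was listed at 5.29 and 4.32 TPM with sgNS, against 12.1 and 12.2 TPM with the METTL16 guide, a log2 fold change of 1.33 (SE 0.10, limma adjusted p of 7.2e-07), and 1.16 after median-ratio scaling. ABCG5 (chromosome 2, 43812472 to 43838865, minus strand) encodes the other subunit, and the gene lies head to head with ABCG8 and overlaps it. It was listed at 0.31 and 0.27 TPM with sgNS, against 0.37 and 0.95 TPM with the METTL16 guide. At these levels ABCG5 was not tested.
ABCA1, which passes cholesterol to apolipoproteins, was at 66.3 and 63.0 TPM against 70.1 and 67.1 TPM, with a log2 fold change of 0.086 and a limma adjusted p of 0.12. SOAT2, the hepatic and intestinal form of the esterifying enzyme, was at 26.9 and 25.0 TPM against 31.1 and 26.3 TPM, with overlapping groups, a log2 fold change of 0.14 and a limma adjusted p of 0.12. Both values changed sign under median-ratio scaling, to -0.079 and -0.023, without passing the test. As deposited, ABCA1 passed without sgNS replicate 1 (0.12, limma adjusted p of 0.041) and SOAT2 without METTL16 KO replicate 2 (0.26, limma adjusted p of 0.025). Of the 5 members named above as LXR targets, ABCG8 was higher, SREBF1 was lower, ABCA1 was not called, MYLIP was called higher only without scaling, and ABCG5 was not tested.

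Related genes within the list were compared by their ratio in each library, which a scale factor per library does not change. The log2 differences were taken on TPM + 0.1, so at low levels they do depend somewhat on scale. The exact two-sided permutation test of 2 against 2 libraries cannot go below a p of 0.333. INSIG1 was 8.64 and 8.15 times as abundant as INSIG2 in sgNS but 2.21 and 2.22 times in METTL16 KO, a difference of -1.92 in the log2 ratio (exact permutation p of 0.333). The ratio of TM7SF2 to LBR was 0.572 and 0.511 in sgNS and 0.211 and 0.210 in METTL16 KO, a difference of -1.35 (exact permutation p of 0.333). In both pairs the first gene, which fell more than 2-fold, lost abundance relative to a partner that fell less (LBR) or was slightly higher (INSIG2).
The ratio of SREBF1 to SREBF2 was 0.511 and 0.491 against 0.608 and 0.615, a difference of 0.29 on the log2 scale (exact permutation p of 0.333). That of SOAT1 to SOAT2 was 1.85 and 2.03 against 1.38 and 1.58, a difference of -0.39 (exact permutation p of 0.333). The groups did not overlap in these 4 pairs, and neither did they in 87.4% of all single genes tested. The ratio of ABCG5 to ABCG8 was 0.0586 and 0.0625 against 0.0306 and 0.0781, with overlapping groups and an exact permutation p of 1. Its log2 difference of -0.48 became 0.10 without METTL16 KO replicate 1 and -1.05 without replicate 2. This difference also depended on the pseudocount, and was -0.84 with 1 (exact permutation p of 0.333) and -0.33 with 0.01. Under quantile normalization it was -0.87 (exact permutation p of 0.333).

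**Figure D3:**
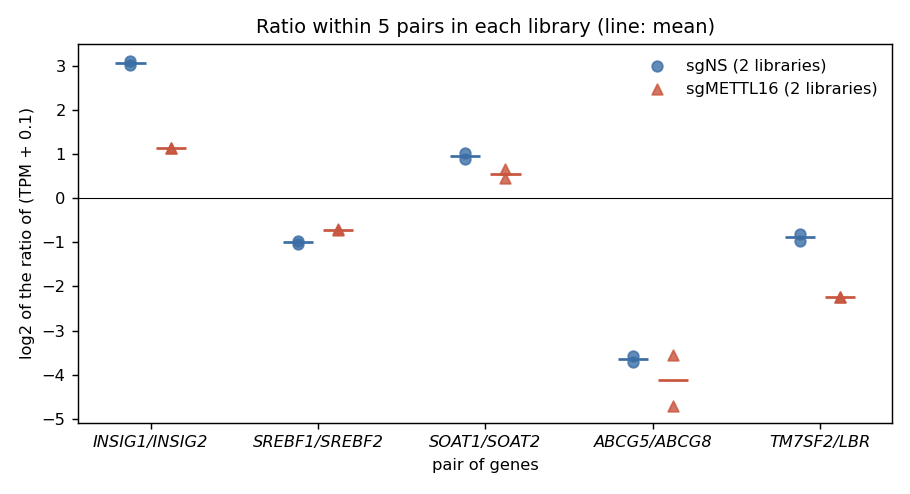
Log2 of the ratio of (TPM + 0.1) within 5 pairs of genes in each library, with sgNS as circles, METTL16 KO (sgMETTL16) as triangles and lines at the group means. INSIG1/INSIG2 and TM7SF2/LBR moved by -1.92 and -1.35, and the METTL16 KO libraries of ABCG5/ABCG8 lie on either side of sgNS.

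Farnesyl diphosphate made by FDPS also feeds the isoprenoid branches that lead to dolichol, ubiquinone and prenylated proteins. Of 14 genes of these branches and of the electron donors of the sterol oxidases, 8 were higher, 3 were lower and 3 were not called, near the 50.1% higher and 25.6% lower of all genes tested. After median-ratio scaling 8 were higher and 5 lower, where 4359 of the 11971 genes tested were higher and 4375 lower. Their median log2 fold change was 0.35, against 0.16 for all genes. PDSS1, a subunit of the synthase of the ubiquinone tail, rose from 10.00 and 9.90 TPM with sgNS to 24.3 and 23.0 TPM with the METTL16 guide, a log2 fold change of 1.24 (limma adjusted p of 3.5e-08). DHDDS, a subunit of the prenyltransferase of dolichol synthesis, rose by a log2 fold change of 0.69. COQ2, which attaches the ubiquinone tail, went from 16.12 and 16.21 to 8.51 and 9.61 TPM (log2 fold change -0.83), and CYB5B and FNTA fell by 0.33 and 0.22. GGPS1, which extends farnesyl diphosphate and was picked after its value was seen, had a log2 fold change of 0.37, against -2.36 for FDPS and -1.30 for FDFT1.

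The proteins that mature SREBP or degrade sterol-regulated proteins were spread about 0, with 4 of 12 genes higher, 4 lower and 4 not called, against 50.1% higher and 25.6% lower of all genes. Their median log2 fold change was 0.079, and -0.086 after median-ratio scaling. The genes with the largest rises were C12orf49, whose product licenses the protease that cleaves SREBP, from 23.2 and 22.1 to 40.7 and 40.4 TPM (log2 fold change 0.84), and SYVN1 and FAF2 of the endoplasmic reticulum degradation machinery, with 0.72 and 0.49. Among the lower genes, ERLIN1 fell by 0.34 and MBTPS2 by 0.14. MBTPS1, which encodes the first protease to cut SREBP and was picked after its value was seen, had a log2 fold change of -0.0033 (limma adjusted p of 0.94).

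Of 14 genes of cholesterol traffic, 12 were tested, of which 7 were lower, 2 were higher and 3 were not called, where 25.6% of all genes were lower and 50.1% higher. The lower genes include GRAMD1C, which passed the filter only through the group where it was high. After median-ratio scaling 9 were lower and 2 higher, where 4375 of the 11971 genes tested were lower and 4359 higher. The median log2 fold change of the list was -0.15. LRP1, an endocytic receptor for remnant lipoproteins, fell from 90.2 and 77.7 TPM with sgNS to 30.5 and 29.0 TPM with the METTL16 guide (log2 fold change -1.49, limma adjusted p of 8.9e-09). SCARB1, the receptor for high-density lipoprotein, fell from 250.5 and 239.7 to 129.2 and 133.8 TPM (log2 fold change -0.90). GRAMD1C, at 1.89 and 1.82 against 1.13 and 0.77 TPM, fell by 0.92 with a standard error of 0.23, and it reached the level required for the test through sgNS alone. NCEH1, a cholesterol ester hydrolase, and NPC2, the lysosomal carrier, rose, with log2 fold changes of 0.95 and 0.81.

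Of 15 genes of LXR, further efflux and bile acid synthesis, 9 were tested. Of these 5 were higher, 2 were lower and 2 were not called, where 50.1% of all genes tested were higher and 25.6% lower. After median-ratio scaling 4 were higher and 2 lower, where 4359 of the 11971 genes tested were higher and 4375 lower. These counts include BAAT as higher and ABCG1 as lower, and each reached the test only through the group where it was high. RXRB is not analysed here. AKR1D1, a reductase of bile acid synthesis, rose from 4.90 and 3.98 TPM with sgNS to 59.8 and 60.9 TPM with the METTL16 guide (log2 fold change 3.74, limma adjusted p of 8.7e-11), and 36 genes had a higher value. BAAT, which conjugates bile acids, was listed at 0.19 and 0.40 against 2.34 and 2.73 TPM (log2 fold change 2.79) and reached the level required for the test through METTL16 KO alone. AMACR, the racemase of side-chain shortening, rose by a log2 fold change of 0.53. ABCG1, another sterol exporter, fell from 2.40 and 2.43 to 0.80 and 0.77 TPM (log2 fold change -1.51) and reached the test through sgNS alone. NR1H3, which encodes LXR-alpha, fell from 33.6 and 32.7 to 23.2 and 23.9 TPM (log2 fold change -0.49). CYP7A1, the rate-limiting enzyme of bile acid synthesis, was picked after its values were seen. It was listed at 0.02 and 0.03 TPM with sgNS, against 1.23 and 1.35 TPM with the METTL16 guide and was too low to be tested.

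**Figure D4:**
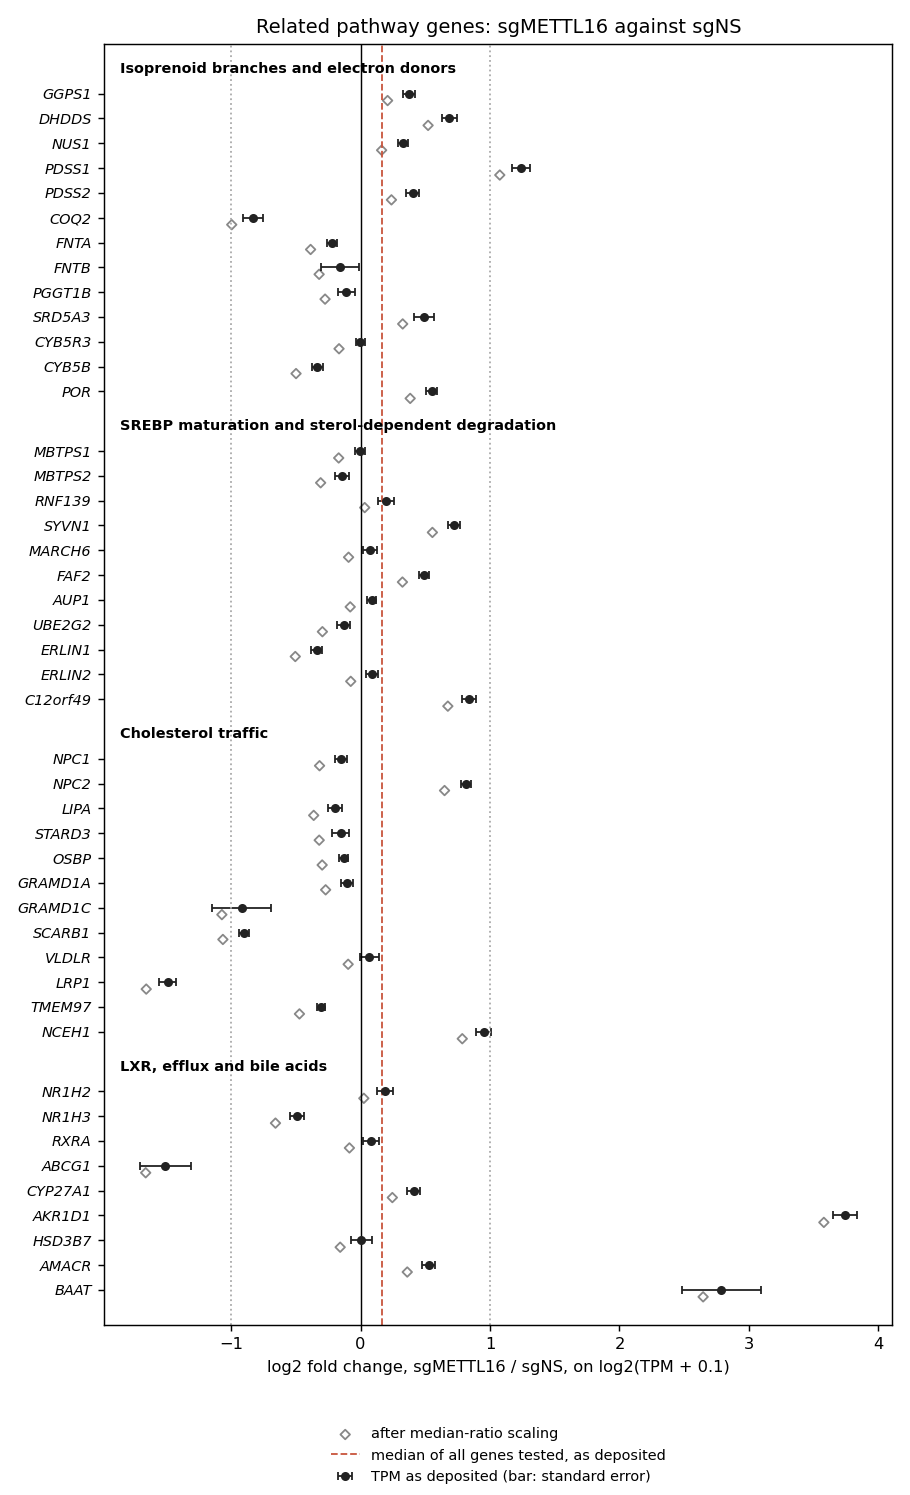
Log2 fold change of METTL16 KO (sgMETTL16) over sgNS for genes tested from 4 related lists, with standard errors as bars, open diamonds for median-ratio scaling, and the dashed line at the median of all genes (0.16). Values outside a 2-fold change are AKR1D1 at 3.74, BAAT at 2.79, PDSS1 at 1.24, LRP1 at -1.49 and ABCG1 at -1.51, of which BAAT and ABCG1 passed the filter through 1 group alone.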

How the data were processed

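RNA-seq of 4 Huh7 libraries (2 sgNS, 2 METTL16 KO) was analysed from 1 deposited table of TPM per gene symbol. To make it, the authors used Cutadapt for trimming, STAR for alignment to GRCh38 and RSEM for quantification, with versions and annotation not given in the sources used here. RPKM is the unit named in the methods, whereas each deposited column summed to 1000000 as TPM does. RSEM shares reads between similar genes, and TPM keeps no counts, so no depth, interval or count test is given.

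The groups were tested on log2(TPM + 0.1) with limma 3.58.1 (lmFit, eBayes with trend, R 4.3.3), over 11971 genes averaging 1 TPM or more, without a block and with Benjamini-Hochberg adjustment over all of them. The fit was tested on simulated data. The members and lists were chosen with earlier results of these data known. All members are accounted for, and values are given for those past the 2-fold threshold, for up to 3 called genes per direction and role, and for the pairs. In 4 related lists up to 3 called genes per direction are named, apart from some that are not reported here.

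Gene positions are from GENCODE 44 (GRCh38) and promoters from RefSeq (GRCh38.p14). Python 3.11.15, numpy 2.4.6, pandas 2.3.3, scipy 1.17.1 and matplotlib 3.10.9 were used. Alternatives were pseudocounts of 1 and 0.01, other filters, median-ratio and quantile scaling, the replicate block, limma without trend, an adjusted p with the fold threshold and each library left out. The minimum mean of 50 TPM was added after the data were seen.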

Additional observations from a re-analysis of the deposited data

How the results depend on the processing

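Under every alternative for which this count was made, 25 members were lower at an adjusted p under 0.05, and they were the same 25. It was not made for the minimum mean of 50 TPM, where 20 members were tested, or for the adjusted p with the fold threshold. When a library was left out, the members' median log2 fold change lay between -0.80 and -0.75. Past the 2-fold threshold 9 to 13 members were lower. The 4 higher calls became 1 under median-ratio scaling, 1 under quantile normalization and 2 to 4 when a library was left out. The members' median of -0.77 was -0.94 and -0.88 under these scalings, which put the median of all genes at -0.0016 and 0.0097. Of all genes tested, 4375 and 4248 were lower and 4359 and 4420 higher under median-ratio and quantile scaling. ABCA1 changed sign to -0.079 and -0.036, and SOAT2 to -0.023 and -0.043. Where a library was left out, the lone library of its group was assumed to vary like the other group. The log2 difference in ABCG5/ABCG8 ranged from -1.05 to 0.10 when a library was left out. Of all genes, 449 were lower and 920 higher past the 2-fold threshold. Quantile normalization gave 692 and 582, testing all genes above 0 in at least 1 library gave 1390 higher, and a minimum mean of 5 TPM gave 575 higher. A minimum mean of 50 TPM, chosen after seeing the data, gave 71 lower. The filters change the genes tested, and for the scalings the cause was not tested. The labels number the replicates of both groups, but nothing ties equal numbers together, and same-numbered libraries deviated from their group means with a correlation of -0.044 over genes. With the replicate number as a block, 25 members were lower and 5 higher, since SOAT2 passed (0.14, limma adjusted p of 0.045). No depth is known, so what counting error adds at low levels such as that of ABCG5 could not be computed.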
